A study of Mus musculus with 9 samples.

Results

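This account follows 49 interferon-stimulated genes in the livers of 9 male C57BL/6 mice. They were taken by gene name from the 54532 genes of the deposited count table, and all 49 were found in it once and passed the filter on low counts. In these bulk livers fewer cells of a type and less RNA per cell cannot be told apart. The first group was 8 weeks old (young, 3 livers). The other 2 groups, aged 20 months, had received adeno-associated virus 9 (AAV9), a gene delivery vector, through the tail vein and into the subcutaneous white fat at 14 months. Their virus carried either shRNA-Neg, a negative control hairpin RNA (old control, 3 livers), or shRNA-Fabp4, a hairpin RNA against Fabp4 (old Fabp4 shRNA, 3 livers). Fabp4 encodes a fatty acid binding protein best known from fat cells and macrophages. The labels give 15 mice per group, of which 3 were sequenced, and they do not describe an injection of the young mice, so age and virus injection cannot be told apart in any comparison with young liver. They name no promoter for the hairpin RNA and no cell type that it was limited to.

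Interferons are signalling proteins released on infection or tissue damage. Type I interferons act through a receptor that activates the kinases Jak1 and Tyk2, and a complex that holds Stat2 and Irf9 then binds a promoter element, the interferon-stimulated response element (ISRE). Interferon-gamma, made mainly by T and natural killer cells, acts through its own receptor, and its targets carry another element, the gamma-activated site (GAS). The Ifit, Oas and Mx genes (12 members) are classed here as induced by type I interferon, and the Gbp and Irg genes (9 members) as induced by interferon-gamma, although many of these genes answer to both. The remaining 28 members were grouped as antigen processing (3), transcription factors (4), nucleic acid sensors (6), the ISG15 system (3) and other effectors (12).

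Promoter letters, which the choice by name did not use, were shared by some of the members. RefSeq promoters on build GRCm38.p6 were matched by symbol for 38 of the 49 members, and the 250 bases before each start were searched on both strands. For the ISRE the letters were TTTC, any 2 bases and TTTC again, or on the other strand GAAA, any 2 bases and GAAA, and for the GAS they were TTCNNNGAA, with N for any base. The 2 kinds of match may overlap, and a match is a description, not a bound site. ISRE letters stood before 18 of the 38 members (47.4%) and before 3.46% of all 27025 genes in the table. GAS letters stood before 10 of the 38 (26.3%) and before 8.13% of all genes. Both kinds stood before 5 of the 38, and 15 had neither. By family, ISRE letters were found in 6 of 9 Ifit, Oas and Mx promoters and in 6 of 7 Gbp and Irg promoters, and GAS letters in 2 of 9 and 3 of 7.

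The 2 upstream stretches shown first are whole, 250 bases 5′ to 3′ on the gene's own strand, with the ISRE and GAS letters in capitals. They show an antiviral gene with a pair of ISRE matches (Ifit1, chr19:34640639-34640888, plus strand) and a GTPase gene with a GAS match directly before an ISRE match (Igtp, chr11:58199306-58199555, plus strand).
Ifit1: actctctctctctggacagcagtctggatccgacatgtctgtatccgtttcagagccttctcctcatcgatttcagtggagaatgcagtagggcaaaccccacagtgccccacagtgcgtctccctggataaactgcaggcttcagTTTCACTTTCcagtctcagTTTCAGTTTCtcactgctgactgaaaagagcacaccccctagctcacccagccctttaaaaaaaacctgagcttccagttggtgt
Igtp: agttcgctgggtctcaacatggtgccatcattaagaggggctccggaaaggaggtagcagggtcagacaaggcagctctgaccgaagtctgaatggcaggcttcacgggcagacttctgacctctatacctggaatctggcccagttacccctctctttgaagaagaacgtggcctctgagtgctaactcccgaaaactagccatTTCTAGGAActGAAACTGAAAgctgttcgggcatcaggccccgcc

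Shorter windows around the ISRE letters, again 5′ to 3′ on the gene's strand with these letters in capitals, show members with large values in the results below and pairs of related genes. They lie at chr5:120777715-120777744 (Oas3, minus strand), chr5:120907526-120907555 (Oas1a, minus), chr5:120887614-120887641 (Oas1g, minus), chr19:34583363-34583392 (Ifit3, plus), chr19:34607759-34607788 (Ifit3b, plus), chr4:156200865-156200906 (Isg15, minus), chr3:142559989-142560024 (Gbp3, plus), chr11:58214903-58214932 (Irgm2, plus) and chr8:71537577-71537612 (Bst2, minus).
Oas3: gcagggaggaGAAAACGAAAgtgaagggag
Oas1a: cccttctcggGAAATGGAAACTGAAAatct
Oas1g: cccttctcggGAAATGGAAACTGAAAat
Ifit3: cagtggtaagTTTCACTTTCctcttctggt
Ifit3b: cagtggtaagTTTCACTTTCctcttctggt
Isg15: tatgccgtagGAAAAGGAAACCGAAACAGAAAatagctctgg
Gbp3: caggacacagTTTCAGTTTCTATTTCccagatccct
Irgm2: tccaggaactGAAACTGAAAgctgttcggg
Bst2: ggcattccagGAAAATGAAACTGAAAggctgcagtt

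Of the windows shown, those of Isg15, Gbp3, Oas1a, Oas1g and Bst2 carried overlapping ISRE matches in tandem, 3 in Isg15 and 2 in each of the others. The windows of Ifit3 and Ifit3b were identical over 30 of 30 bases and those of Oas1a and Oas1g over 28 of 28. Over the aligned upstream 250 bases Oas1a and Oas1g were 82.8% identical and Ifit3 and Ifit3b 77.0%. Such close paralogs can share reads, so the split of counts within each pair is uncertain. The same holds for Igtp and Irgm2, whose annotated gene bodies overlap on the same strand and whose windows were identical at 29 of 30 bases. In the mouse annotation (GENCODE M21, GRCm38) 22 of the 49 members overlap another gene, among them Tap1 with Psmb9 on opposite strands, and the strand setting of the authors' counting is not given in the sources used here. Mx2 is annotated there as a polymorphic pseudogene.

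The libraries held between 14243344 and 17125440 counts, and the detection floor of 3 counts came to 0.175 to 0.211 CPM (counts scaled to library size). Albumin, the defining transcript of hepatocytes, made up 5.34% to 10.4% of the counts, which fits the liver label, while the RNA extraction text of the labels names NRVMs, a usual abbreviation for neonatal rat ventricular myocytes. The count column called Y2 matched no young mouse number in the labels (1, 4 and 5) and is called the unnumbered young library. Its FPKM column, which holds values scaled to gene length and library size, was a fixed multiple of its counts for only 0.229% of genes, against 100% in each of the other 8 columns. Its summed skeletal muscle markers were 3872 CPM, against at most 84.3 CPM elsewhere. It was the lowest young library for 41 of the 49 members, so medians and counts without it are given in the age comparison. The share of all tested genes for which it was lowest was not computed.

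Levels differed widely between members. Compared per length, over the 8 libraries whose FPKM and counts match, the highest member was Bst2 (tetherin, which holds budding virus at the cell surface) with a mean of 188.0 ± 67.1 FPKM (SD over libraries). It was followed by Iigp1 (an immunity-related GTPase) at 156 ± 24.9 and Ifi27 (an interferon-induced mitochondrial protein) at 123 ± 63.6 FPKM. These SDs pool the groups, and the order changed between them: the mean FPKM of Bst2, Iigp1 and Ifi27 was 213, 177 and 124 in old control and 185, 131 and 162 in old Fabp4 shRNA. Igtp at 31.6 ± 10.5 and Isg15 at 27.8 ± 21.4 FPKM came next. Oas3 was lowest at 0.424 ± 0.575 FPKM. Its lowest count in any library was 7, above the floor of 3, so each of the 49 members was detected in all 9 libraries.

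Old control replicate 1 stood apart from the other libraries for these genes. It had the highest CPM of all 9 libraries in 44 of the 49 members, while it was highest for 13.6% of the 14025 tested genes. At least a 2-fold lead over the highest of the other 8 libraries was seen in 15 of the 49 members, against 1.25% of tested genes. The 5 members that peaked elsewhere were Ifit1, Gbp7 and Isg20 in young replicate 5, Iigp1 in old control replicate 2 and Gbp2 in old Fabp4 shRNA replicate 1. The ratio of old control replicate 1 to the mean of old control replicates 2 and 5 had a median of 2.56 over the members and 1.02 over all tested genes. Its median was 3.55 in the Ifit, Oas and Mx members and 1.71 in the Gbp and Irg members, ranging from 1.04 (Iigp1) to 8.82 (Oas1g). This is 1 library, so these ratios have no replicate check.

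Kupffer cell, neutrophil and conventional dendritic cell marker sums were also highest in that library, while the sums of the other marker lists were not. A sum can rest on 1 abundant gene, as with Spp1 below, so it does not give the level of a cell type. The summed level of 10 Kupffer cell (resident liver macrophage) markers was 763 CPM in old control replicate 1 and 118 to 285 CPM in the other 8, and 7 of the 10 peaked there. Clec4f, a defining Kupffer cell gene, was 212 CPM there against 58.4 and 61.7 CPM in old control replicates 2 and 5. The 10 neutrophil markers summed to 65.6 CPM, with 7 of 10 highest in that library, against 51.2 CPM in old control replicate 2 and 5.96 to 30.1 CPM in the rest. T and natural killer cell markers summed to 19.1 CPM, inside the range of 11.6 to 30.6 CPM in the others, with 1 of 14 highest there. Plasmacytoid dendritic cell markers, without Cox6a2 (also a muscle gene, at 0 in that library and 61.2 CPM in the unnumbered young one), summed to 22.7 CPM, against 13.7 to 26.9 CPM in the others. Conventional dendritic cell markers summed to 27.4 CPM, against 8.30 to 23.9 CPM, with 4 of 8 highest there. Markers of liver sinusoidal endothelium summed to 355 CPM, against 217 and 291 CPM in the other old controls and 162 to 362 CPM in the remaining libraries. Monocyte and recruited macrophage markers summed to 239 CPM, against 184 and 249 CPM in the other old controls and 79.3 to 146 CPM in the remaining libraries. The order of the old control sums depends on Spp1, which is also on the bile duct list. Spp1 was 50.3 CPM in old control replicate 1 and 66.5 and 142 CPM in replicates 2 and 5. Lyz2, on the same monocyte list, was 144 CPM against 62.4 and 44.9 CPM, and 3 of the 10 markers were highest in replicate 1. Hepatocyte markers summed to 95030 CPM, against 143784 and 121695 CPM in the other old controls, with 0 of 8 highest there. Sums of B and plasma cell, stellate cell, bile duct cell and red blood cell markers (297, 314, 84.3 and 189 CPM) were not the highest there either. Mitochondrially encoded genes took 4.42% of the counts of that library, 11.1% and 14.5% in the other old controls and 4.15% to 13.8% in the rest. The part of these cells, and of RNA quality, in the level of the members was not tested.

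**Figure D1:**
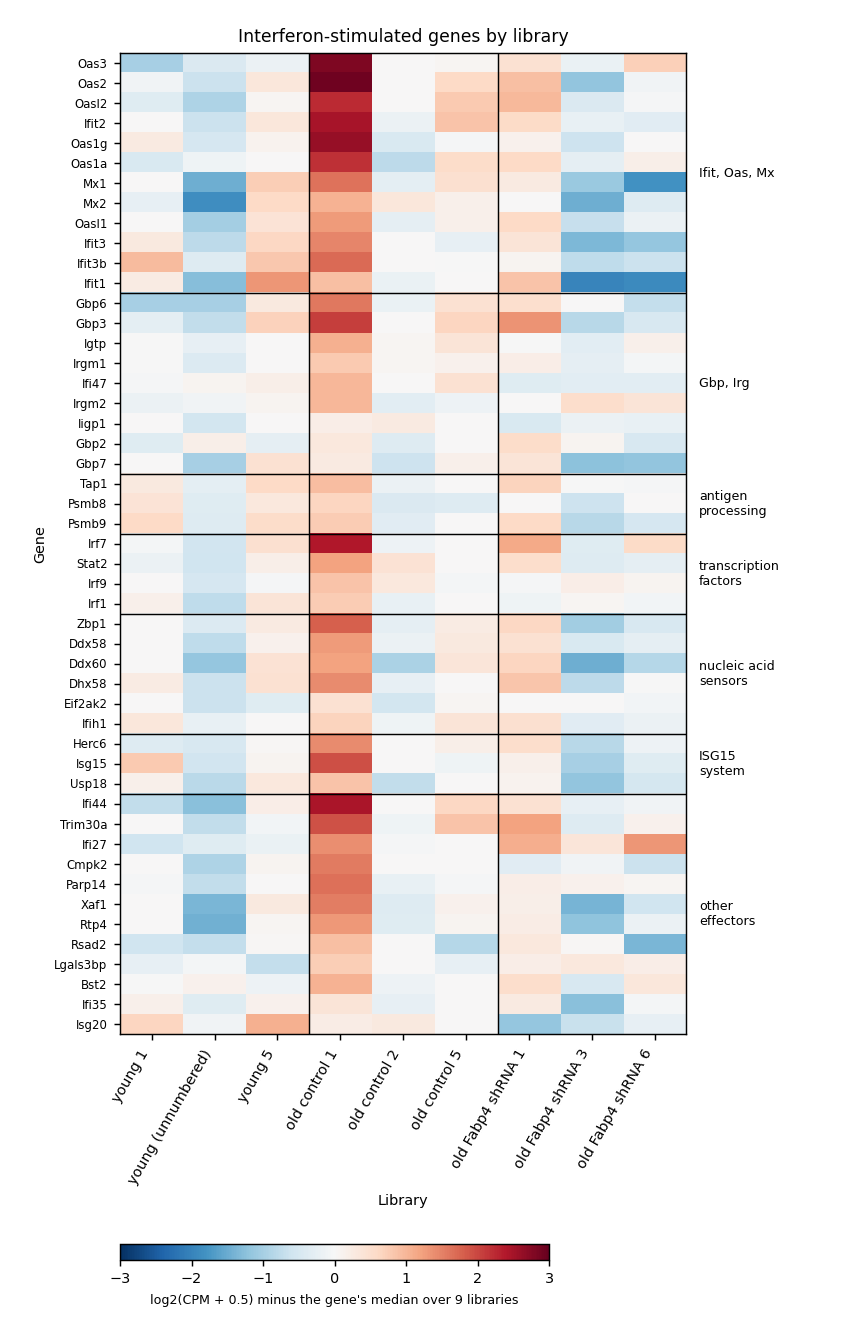
Each row is 1 of the 49 genes, grouped by role, and each column 1 library; colour gives log2(CPM + 0.5) minus the gene's median over the 9 libraries, from blue (lower) to red (higher). The column of old control replicate 1 is the reddest in 44 rows, and the unnumbered young library is the lowest young column in 41.

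**Figure D2:**
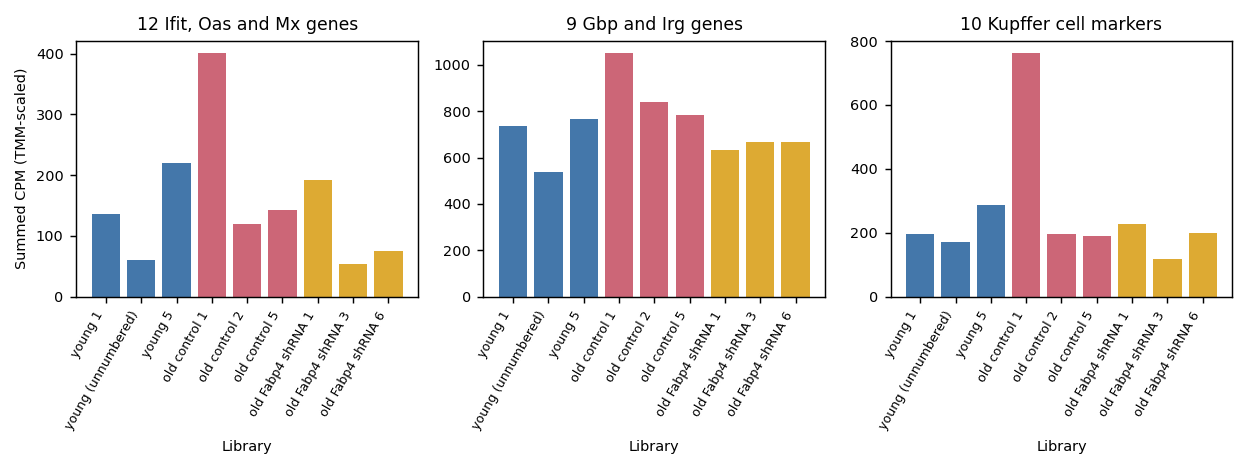
Bars give the summed TMM-scaled CPM of the 12 Ifit, Oas and Mx genes (left), the 9 Gbp and Irg genes (middle) and 10 Kupffer cell markers (right) in each of the 9 libraries, coloured by group. Old control replicate 1 is the tallest bar in each panel, at 401, 1052 and 763 CPM.

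As families, the Ifit proteins bind viral RNA, the Oas enzymes make the messenger that activates RNase L, and the Mx proteins are antiviral GTPases. This need not hold for each of the 12 genes in these mice, such as Mx2, annotated as a polymorphic pseudogene. The 12 genes summed to 136, 59.5 and 220 CPM in young replicate 1, the unnumbered young library and young replicate 5. For the old control livers the sums, by replicate 1, 2 and 5, were 401, 120 and 143 CPM, and for the old Fabp4 shRNA livers, by replicate 1, 3 and 6, they were 193, 53.4 and 74.2 CPM. The 3 groups thus overlapped, and within each group the highest library was between 3.35 and 3.70 times the lowest. Ifit1, the most abundant of them in CPM, was 43.8, 14.8 and 92.6 CPM in the young libraries in the same order, 69.0, 31.9 and 36.7 CPM in old control and 67.3, 8.99 and 9.40 CPM in old Fabp4 shRNA. Its highest value was in a young liver, and every group held both a high and a low library.

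Oas3, Oas2, Oas1g and Oas1a were among the 6 members with the largest lead of old control replicate 1. Oas3 was 0.518, 1.02 and 1.30 CPM in young, 13.8, 1.55 and 1.64 CPM in old control, and 2.32, 1.27 and 2.87 CPM in old Fabp4 shRNA. Oas2 was 6.51, 4.34 and 9.08 CPM in young, 56.8, 7.06 and 11.0 CPM in old control, and 13.6, 2.81 and 6.48 CPM in old Fabp4 shRNA. For Oas2 the lower 2 old controls lay in or close to the young range, and only replicate 1 was far from it. Oas1g was 16.6 CPM in old control replicate 1 and 1.32 to 2.88 CPM in the other 8 libraries. Oas1a was 18.5 CPM there and 1.91 to 5.80 CPM in the others. All 4 of these genes encode members of the oligoadenylate synthetase family, and the reads of Oas1a and Oas1g may be shared.

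The Gbp and Irg genes encode GTPases that attack the membranes around pathogens inside the cell. Their 9 genes summed to 734, 538 and 766 CPM in the young libraries, 1052, 841 and 785 CPM in old control and 634, 667 and 666 CPM in old Fabp4 shRNA. The old control sums all lay above those of the other 2 groups, and Iigp1 alone made up 56.4% to 74.4% of each sum. Iigp1 was 519, 352 and 517 CPM in young, 593, 625 and 519 CPM in old control, and 374, 458 and 441 CPM in old Fabp4 shRNA. Its old control values lay above those of both other groups, although the lowest old control (519.2 CPM) and the highest young value (518.7 CPM) were nearly the same. Igtp was 56.6, 48.2 and 57.0 CPM in young, 120, 59.5 and 74.4 CPM in old control, and 56.7, 45.8 and 63.2 CPM in old Fabp4 shRNA, so that old control did not overlap young.

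Among the transcription factors, Irf7, which amplifies the type I response, was 49.2, 34.1 and 71.3 CPM in young, 272, 46.0 and 51.0 CPM in old control, and 112, 39.4 and 76.0 CPM in old Fabp4 shRNA. Old control replicates 2 and 5 lay inside the young range. Stat2, a factor activated at the type I receptor, was 80.2, 59.8 and 103 CPM in young, 211, 123 and 90.6 CPM in old control, and 130, 69.6 and 75.5 CPM in old Fabp4 shRNA. Ddx58 (RIG-I), a sensor of viral RNA, was 13.8 to 26.0 CPM in young, 58.0, 20.9 and 28.8 CPM in old control and 17 to 32.5 CPM in old Fabp4 shRNA. The groups overlapped for both. Tap1, which carries peptides to class I molecules, was 21.4 to 40.1 CPM in young, 23.4 to 50.6 CPM in old control and 25.7 to 42.4 CPM in old Fabp4 shRNA. Usp18, which removes ISG15 from proteins and damps the type I receptor, was 13.2 to 29.2, 13.8 to 42.8 and 9.87 to 25 CPM in the same order. For these 2 genes the ranges of the 3 groups overlapped.

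**Figure D3:**
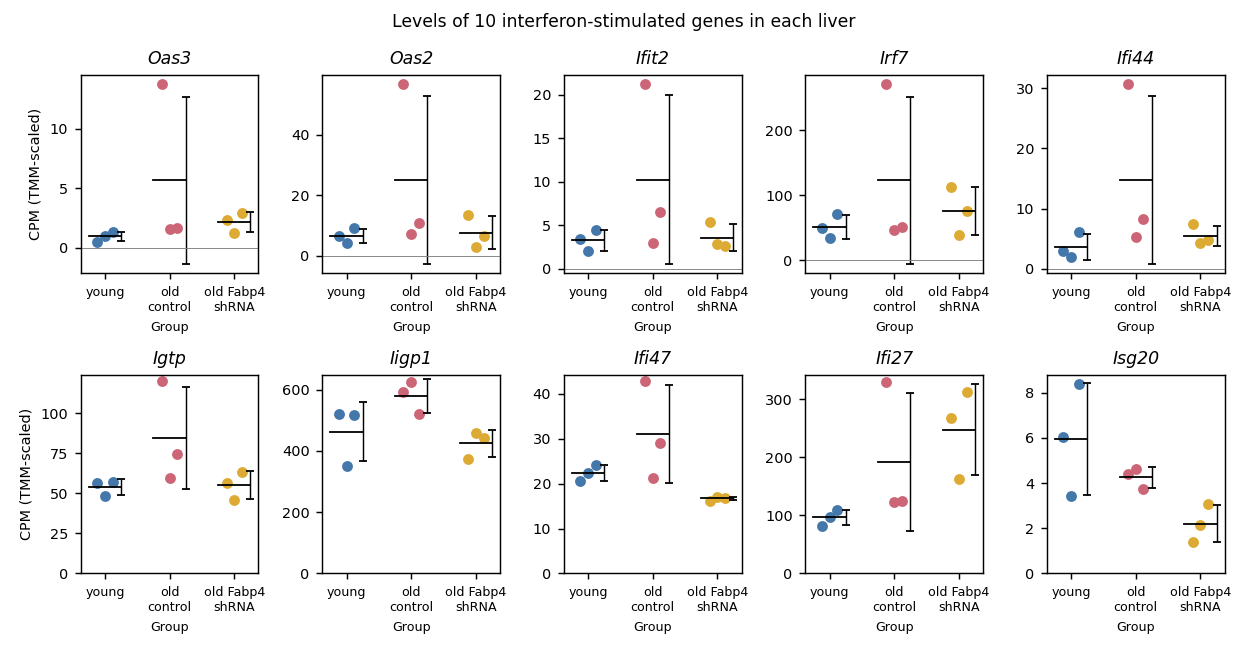
Points give the TMM-scaled CPM of 10 genes in each of the 9 livers by group, with the group mean (horizontal bar) and its SD (error bar, n = 3). For Oas3, Oas2, Ifit2, Irf7 and Ifi44 1 old control point, replicate 1, lies far above the 8 others, Ifi27 is higher in all 3 old Fabp4 shRNA livers than in young liver, and Isg20 is lower.

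The question of age rests on the 3 old control and 3 young livers. No member was called by edgeR's quasi-likelihood test at a Benjamini-Hochberg adjusted p under 0.05 (0 of 49), where 0.0357% of tested genes were called. The lowest adjusted p of a member was 0.365, for Oas3. At an unadjusted p under 0.05, 13 of the 49 were higher and 0 lower, while 6.42% of tested genes were higher and 4.07% lower. The count of 13 depended on single libraries: it became 4 when the unnumbered young library was left out, 6 without young replicate 1, 22 without old control replicate 2 and 0 without old control replicate 1, and 8 when reads recovered from the FPKM column replaced the counts of the unnumbered young library. DESeq2 called 2 of the 49, Oas3 (adjusted p = 0.0475) and Ifi44 (adjusted p = 0.0479), where it called 1.2% of tested genes. Over the other settings the adjusted p ranged from 0.233 to 0.778 for Oas3 and from 0.246 to 0.715 for Ifi44. The log2 fold change was positive in 45 of 49 members, with a median of 0.65, against a median of 0.01 over all tested genes. It was positive in 11 of 12 Ifit, Oas and Mx members, with a median of 1.16, and in 9 of 9 Gbp and Irg members, with a median of 0.48.

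The members with the smallest p in this comparison came from several roles. The log2 fold change of Oas3 was 2.58 ± 0.84 (SE), with a 95% interval of 0.73 to 4.42. Ifi44, an interferon-induced protein, was 2.96, 1.92 and 6.11 CPM in young and 30.7, 5.22 and 8.27 CPM in old control, a log2 fold change of 2.02 ± 0.66 (0.55 to 3.48). Oasl2, an Oas-like gene, was 5.54, 3.58 and 7.56 CPM in young and 36.0, 7.28 and 13 CPM in old control, which gave 1.76 ± 0.60 (0.43 to 3.10). For both genes 1 old control liver lay within the young range. Ifi27 was 82.1, 97.6 and 109 CPM in young and 329, 122 and 125 CPM in old control, a log2 fold change of 1.00 ± 0.38 (0.17 to 1.83). Among the Gbp and Irg genes the smallest p belonged to Igtp at 0.65 ± 0.26 (0.10 to 1.21) and to Gbp6 at 1.36 ± 0.57 (0.12 to 2.60). Gbp6 was 1.92, 1.92 and 5.42 CPM in young and 13.8, 3.68 and 6.12 CPM in old control, with 1 old control inside the young range. The adjusted p of these 6 genes ran from 0.365 to 0.434 in edgeR.

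In 5 of the 49 members (Iigp1, Ifi27, Irgm1, Igtp and Oas3) all 3 old control livers lay above all 3 young livers, which was also seen in 8.89% of tested genes. For 24 of the 49 members old control replicates 2 and 5 both lay inside the young range. They both lay above it for the 5 members just named and both below it for 1, the immunoproteasome subunit Psmb8. The shares of all tested genes for these positions of replicates 2 and 5 were not computed, so the counts are not read as particular to the members.

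Without old control replicate 1 the age difference of these genes was much smaller. That library was above the mean of the other old controls in all 49 members (lowest ratio 1.04, Iigp1). A lower log2 fold change in 49 of 49 therefore follows from leaving it out. The median log2 fold change fell from 0.65 to 0.10, and 30 of 49 were positive. The median of the Ifit, Oas and Mx members fell from 1.16 to 0.19 and that of the Gbp and Irg members from 0.48 to 0.23. In this fit edgeR gave an unadjusted p under 0.05 for 0 members in either direction, against 3.75% of the genes tested in it higher and 3.46% lower, and the lowest adjusted p was 0.703 in edgeR. Oas3 went from 2.58 to 0.75 ± 0.56, Ifi44 from 2.02 to 0.89 ± 0.48, Irf7 from 1.26 to -0.09 ± 0.41 and Oas1g from 1.57 to -0.28 ± 0.50. Iigp1 changed least, from 0.32 ± 0.23 to 0.31 ± 0.26, but leaving out the unnumbered young library gave 0.13 ± 0.25, and recovered reads in its place gave 0.08 ± 0.21. Without the unnumbered young library the log2 fold change was positive in 39 of 49, and the median of all members was 0.42, of the Ifit, Oas and Mx members 0.84 and of the Gbp and Irg members 0.34. With the reads recovered from its FPKM column and without old control replicate 1 the medians were -0.04, 0.02 and 0.12.

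**Figure D4:**
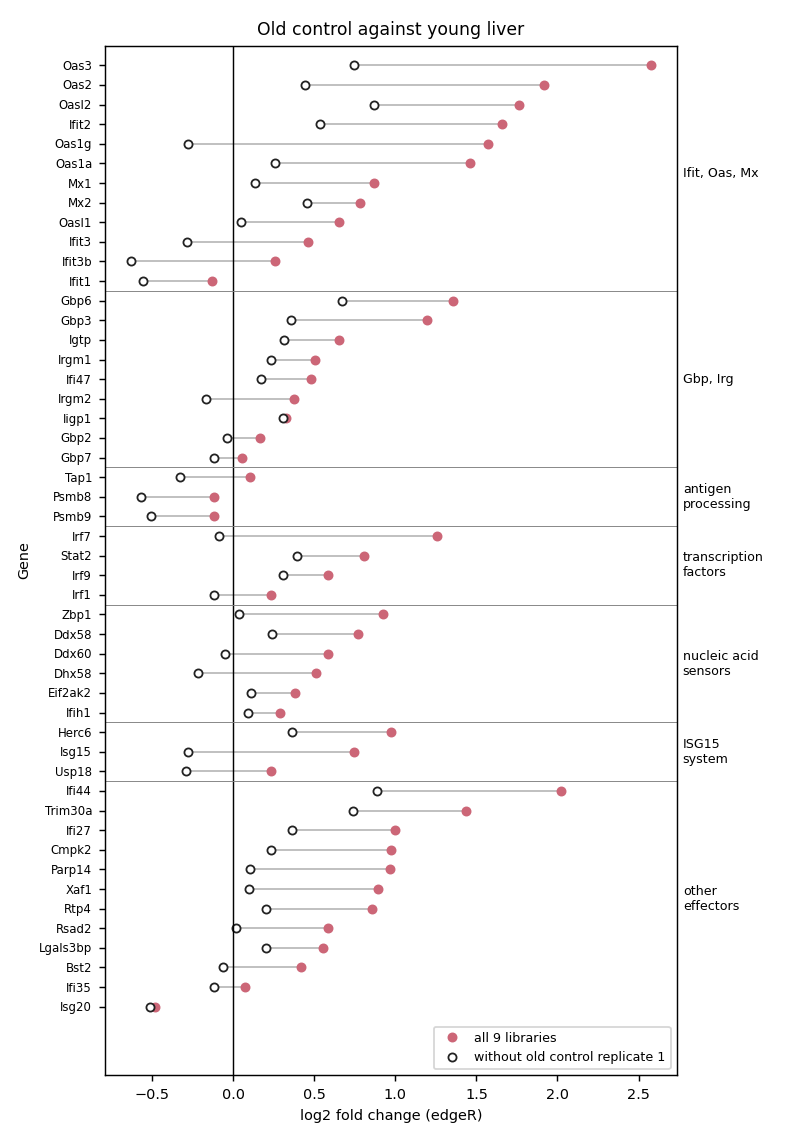
Each row is 1 of the 49 genes, grouped by role, with its edgeR log2 fold change of old control against young liver from all 9 libraries (filled) and without old control replicate 1 (open). The open point lies to the left of the filled one in 49 of 49 rows, which follows from leaving out a library above the mean of the other old controls in each. The median moves from 0.65 to 0.10.

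The effect of the hairpin RNA was read from the 3 old Fabp4 shRNA and 3 old control livers. Fabp4, its target, was at 7.21, 13.6 and 10.9 CPM under the control virus (replicates 1, 2 and 5) and at 11.2, 3.81 and 7.58 CPM under the Fabp4 virus (replicates 1, 3 and 6). The groups overlapped, and the log2 fold change was -0.49 ± 1.16 with a 95% interval of -3.21 to 2.23 (edgeR adjusted p = 0.960). The estimate of the spread behind that interval also includes the young livers. There Fabp4 was 3.40, 64.8 and 2.67 CPM (replicate 1, the unnumbered library and replicate 5). The SD was 35.7 CPM in young, 3.21 CPM in old control and 3.68 CPM in old Fabp4 shRNA. In this fit no lower Fabp4 was detectable, and no direction here rests on a measured knockdown.

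For the members edgeR called 0 of 49, against 0.0% of tested genes, and DESeq2 called 0 of 49, against 0.0499%. The lowest adjusted p of a member was 0.728 in edgeR. At an unadjusted p under 0.05, 7 of the 49 were lower and 0 higher, while 3.48% of tested genes were lower and 3.27% higher. The 7 became 18 without old control replicate 2, 18 without old Fabp4 shRNA replicate 1, 11 without old control replicate 5, 12 with the recovered reads, 3 without old Fabp4 shRNA replicate 6 and 2 without old Fabp4 shRNA replicate 3. The log2 fold change was negative in 45 of 49 members, with a median of -0.66, against -0.01 over all tested genes. The median was -1.23 in the Ifit, Oas and Mx members, where all 12 were negative, and -0.47 in the Gbp and Irg members, where 7 of 9 were. This comparison shares the old control livers with the age comparison, so the opposite signs are not separate evidence. Summed Kupffer cell markers were 763, 197 and 190 CPM in old control and 228, 118 and 200 CPM in old Fabp4 shRNA, and their part in these values was not tested.

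The smallest p belonged to Ifi47 (also called Irg47, an immunity-related GTPase). Its old control values, by replicate 1, 2 and 5, were 42.9, 21.2 and 29.0 CPM and its old Fabp4 shRNA values 16.2, 17 and 16.8 CPM, which did not overlap. Its log2 fold change was -0.89 ± 0.24, with a 95% interval of -1.42 to -0.36. Cmpk2, a mitochondrial nucleotide kinase, was 32.9, 10.9 and 11.0 CPM against 8.49, 10.1 and 6.74 CPM, a log2 fold change of -1.12 ± 0.44 (-2.07 to -0.16). Igtp was at -0.62 ± 0.26 (-1.17 to -0.06). Ifit3b was 13.5, 3.83 and 3.79 CPM against 4.09, 2.04 and 2.25 CPM, or -1.34 ± 0.56 (-2.55 to -0.12), and its reads may be shared with Ifit3. Ifit2 was 21.3, 2.94 and 6.5 CPM against 5.31, 2.87 and 2.56 CPM, or -1.52 ± 0.63 (-2.91 to -0.13). For Igtp, Ifit3b and Ifit2 the groups overlapped. All 5 had an edgeR adjusted p of 0.728.

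In 5 of 49 members (Iigp1, Ifi47, Mx2, Cmpk2 and Isg20) all 3 old Fabp4 shRNA livers lay below all 3 old control livers, which 5.67% of tested genes also showed. Without old control replicate 1 the log2 fold change went up in 49 of 49 members, which likewise follows from leaving that library out. The median became -0.13. It was -0.26 for the Ifit, Oas and Mx members and -0.18 for the Gbp and Irg members, and 19 of 49 were positive. Oas3 went from -1.40 ± 0.78 to 0.43 ± 0.55 and Irf7 from -0.70 ± 0.71 to 0.65 ± 0.42, so that both changed sign. The 7 lower members at an unadjusted p under 0.05 became 1, Ifi47 at -0.59 ± 0.22 (edgeR unadjusted p = 0.0204, adjusted p = 0.844). In that fit 2 were higher, Ifi27 at 1.00 ± 0.29 (edgeR unadjusted p = 0.00607) and Irgm2 at 0.55 ± 0.23 (0.0342), with an adjusted p of 0.844 for both, and 2.56% of the genes tested in it were lower and 3.19% higher. Without old Fabp4 shRNA replicate 1 the median of all members was -1.04 and that of the Ifit, Oas and Mx members -1.81. That replicate was the highest of its group for 37 of the 49 members, and the share of all tested genes was not computed.

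**Figure D5:**
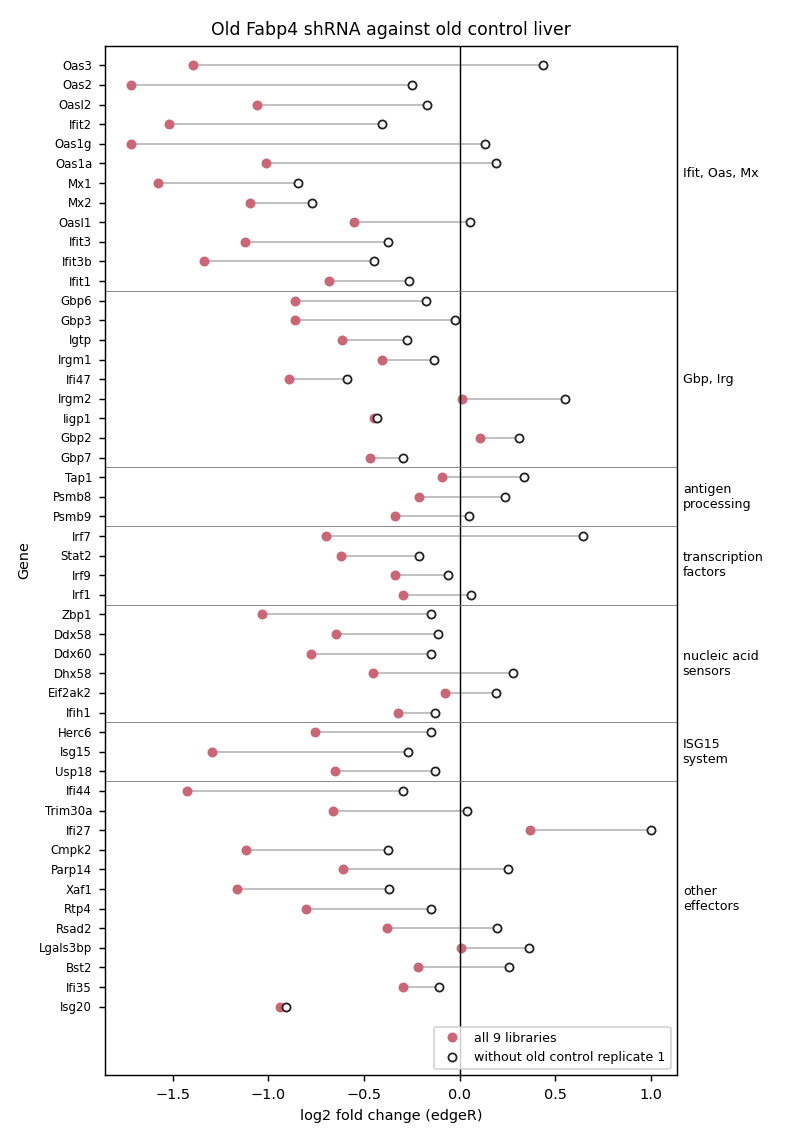
Rows and symbols are as in the plot of the age comparison, for old Fabp4 shRNA against old control liver. The open point, without old control replicate 1, lies to the right of the filled one in 49 of 49 rows, which again follows from leaving out that library. The median moves from -0.66 to -0.13.

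Old Fabp4 shRNA livers were also compared with young livers, which leaves out the old control libraries except for their share in the estimate of the spread. In edgeR 0 of 49 members were called, against 0.057% of tested genes, and the lowest adjusted p was 0.379. At an unadjusted p under 0.05, 1 of 49 was higher and 1 lower, against 4.43% and 4.5% of tested genes. DESeq2 called 1 of 49, Ifi27 (adjusted p = 0.0438), where it called 0.884% of tested genes, and over the other settings the adjusted p of Ifi27 ranged from 0.0274 to 0.854. The median log2 fold change was 0.06 over all members, -0.02 in the Ifit, Oas and Mx members and 0.10 in the Gbp and Irg members, against 0.02 over all tested genes. The median of all members turned to -0.26 without old Fabp4 shRNA replicate 1 and to -0.17 without the unnumbered young library. Without young replicate 5 it stayed positive, at 0.23.

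Ifi27 and Isg20 differed most, in opposite directions. Ifi27 was 82.1, 97.6 and 109 CPM in young and 268, 162 and 313 CPM in old Fabp4 shRNA, with no overlap, a log2 fold change of 1.36 ± 0.38 (95% interval 0.52 to 2.20, edgeR adjusted p = 0.380). Isg20, a nuclease that degrades viral RNA, was 6.06, 3.45 and 8.40 CPM in young, 4.42, 4.64 and 3.72 CPM in old control and 1.40, 2.15 and 3.08 CPM in old Fabp4 shRNA. Its values in old Fabp4 shRNA lay below those of both other groups, and its log2 fold change against young was -1.42 ± 0.40 (-2.30 to -0.55, edgeR adjusted p = 0.379). For Ifi27 old control replicates 2 and 5 lay between the young and the old Fabp4 shRNA livers. Lgals3bp, a secreted galectin-binding protein, was 41.0, 46.9 and 29.8 CPM in young and 56.0, 60.9 and 56.6 CPM in old Fabp4 shRNA, or 0.56 ± 0.26 (-0.01 to 1.13). Ifit3b was at -1.08 ± 0.56, Oas3 at 1.18 ± 0.83, Ifi47 at -0.42 ± 0.24 and Irgm2 at 0.38 ± 0.31, each with an interval that includes 0. All 3 old Fabp4 shRNA livers lay above all young livers for 3 of 49 members (Ifi27, Lgals3bp and Parp14, a poly-ADP-ribose polymerase) and below for 2 of 49 (Ifi47 and Isg20). Among tested genes these shares were 6.79% and 6.67%.

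The lead of old control replicate 1 was also set beside the promoter letters. Among the 18 members with ISRE letters 13 were at least 2 times as high in that library as the mean of the other old controls, with a median ratio of 2.55. Among the 20 members with a promoter in the table and no such letters these figures were 11 and 2.07. Of tested genes outside the 49, 335 had ISRE letters, of which 14.6% reached that ratio, and 9927 had none, of which 5.72% did. Other interferon-induced genes, such as those on the list below, were not taken out of these 2 sets. These shares describe 1 library, and 11 members without a promoter in the table are left out of them.

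The rest of the pathway was read from lists of ligands, receptors and kinases, inhibitors and other interferon-induced genes, and edgeR called 0 of their members in each of the 3 comparisons. Of 22 ligand genes (interferons alpha, beta, epsilon, kappa, zeta, gamma and lambda, and Il27) 18 had 0 counts in all 9 libraries, and none passed the filter on low counts. Ifng had 21 counts and Il27 22 counts over all libraries. Old control replicate 1 held 6 and 10 of these, too few to compare. Receptors and Jak kinases (8 of 9 tested) had a median log2 fold change of 0.07 in old control against young and -0.08 in old Fabp4 shRNA against old control, and 3 were highest in old control replicate 1. At an unadjusted p under 0.05 1 of 8 was higher with age, against 6.42% of tested genes, and 1 of 8 lower with the hairpin RNA, against 3.48%. Without that library there were none. With so few genes these counts are not read as changes.

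Inhibitors such as Socs1 (7 of 8 tested) had medians of 0.22 and -0.05 in these 2 comparisons. In each, 1 of 7 was higher unadjusted, against 6.42% and 3.27% of tested genes. Without old control replicate 1 their medians turned to -0.22 and 0.22. Then 0 of 7 were higher with age and 2 of 7 with the hairpin RNA, against 3.75% and 3.19% of the genes tested in that fit. These counts too rest on few genes and are not read as changes. Other interferon-induced genes (74 of 77 tested) had medians of 0.68 and -0.54, and 59 of them were highest in old control replicate 1. Unadjusted, 24 of the 74 were higher with age, against 6.42% of tested genes, and 12 lower with the hairpin RNA, against 3.48%. Without that library the medians were 0.17 and -0.05, with 4 of 74 higher with age, against 3.75% of the genes tested in that fit, and 1 higher and 3 lower with the hairpin RNA, against 3.19% and 2.56%.

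The 3 pathway genes with the largest lead of old control replicate 1 over the mean of the other old controls were Mb21d1 (cGAS, a sensor of DNA in the cytosol) at a ratio of 6.14, Ifi213 at 5.69 and Slfn1 at 4.83. Ifi213 was 34.5 CPM in that library and 1.88 to 11.4 CPM in the other 8. Slfn1 was 9.12 CPM there and 0.496 to 2.08 CPM elsewhere. Mb21d1 was 2.03 CPM there and 0.0639 to 0.888 CPM elsewhere, from at most 35 counts in a library.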

How the data were processed

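Bulk liver RNA was sequenced in 3 mice per group. HISAT2 and GRCm38.p6 are named in the submitters' processing notes, and no source used here names the counting program. In the authors' deposited tables, one gives raw counts per gene and the other FPKM, which the authors scaled to length and depth. Columns matching no sample or group numbered 0. Reads worked back from the unnumbered young library's FPKM (100% of 17877 values whole within 0.05 reads, 226 genes lost) were an alternative; only its combination with leaving out old control replicate 1 was chosen after seeing the data.

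Counts of all 9 libraries entered a robust quasi-likelihood fit with edgeR 4.0.16 (R 4.3.3, filterByExpr, TMM factors 0.825 to 1.15, 1 mean per group), which tested 14025 genes and gave a biological coefficient of variation of 0.320. Tests are two-sided, CPM are TMM-scaled, adjustment is Benjamini-Hochberg over the tested genes, and errors are SE for fold changes and SD otherwise. Floors cover counting error only. The procedure was tested on simulated data.

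The members, roles and lists were chosen with earlier results of these data known, so no list has a p of its own. Named per comparison were the 4 members with the smallest p and the 2 with the smallest p in each interferon family, plus Fabp4. Values by library, or their range, were also given for the member of highest CPM in each role and for the 6 members, and 3 pathway genes, with the largest lead of old control replicate 1; members counted in groups of 5 or fewer, or ranked by FPKM, were named after their values were seen. Alternatives were other scalings, filters and tools (DESeq2 1.42.0, limma-voom 3.58.1), fits to 6 libraries, a replicate block and leaving out each library. The summary of 1 list of signalling genes, which supplied Mb21d1, is not reported here.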

Additional observations from a re-analysis of the deposited data

How the results depend on the processing

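The number of members called was 0 in every comparison and setting except 2 with DESeq2 in old control against young (Oas3, Ifi44) and 1, Ifi27, in old Fabp4 shRNA against young with DESeq2, with no filter, or with recovered reads and without old control replicate 1. With 1 library left out at a time, the median log2 fold change of the Ifit, Oas and Mx members ran from 0.19 to 1.57 (old control against young) and from -1.81 to -0.26 (old Fabp4 shRNA against old control). With recovered reads and without old control replicate 1 these were 0.0175 and -0.25. With no scaling the Gbp and Irg median in old Fabp4 shRNA against young was 0.40, where the median of all tested genes was itself 0.31 (0.16 and 0.13 in the other comparisons).

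Replicate numbers 1 and 5 recur between groups, but the labels do not say that they pair mice, so they were not taken as pairs. Deviations of same-numbered libraries correlated at 0.12 and 0.04 (young with old control), 0.10 (young with old Fabp4 shRNA) and -0.05 (between the old groups). Libraries with different numbers correlated at -0.39 to 0.39. With 3 libraries per group these values cannot decide whether mice were paired. A fit with the replicate block left 1 residual degree of freedom and called 0 members in old control against young. Old Fabp4 shRNA shared a number with the other groups only in replicate 1. Both of its comparisons in that fit thus rest on 1 liver of that group. The block turned Irgm2 in old Fabp4 shRNA against young to -0.21 and Fabp4 in old Fabp4 shRNA against old control to 0.42.

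Of all tested genes, 5, 0 and 8 were called in the 3 comparisons (old control against young, the old groups, old Fabp4 shRNA against young). The counts were 168, 7 and 124 with DESeq2, 137, 8 and 94 with no filter, 10, 0 and 62 with recovered reads, 3, 0 and 0 with limma-voom, and 15, 0 and 0 in fits to 6 libraries. With the block 158 were called in old control against young. With 1 library left out the counts ran from 1 to 10, 0 to 1 and 0 to 37. The causes were not tested.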

Other observations

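Genes outside the 49 showed the same library standing apart. At least a 4-fold lead of old control replicate 1 over the highest of the other 8 libraries was found in 10 tested genes, of which 3 were members (Oas1g, Oas3 and Oas2) and 1 was on a pathway list (Slfn1). The other 6, named after their values were seen, were Mup8 (a major urinary protein) at a ratio of 13, Siglec1 (a sialic acid receptor of macrophages) at 6.15, Cxcl13 (a B cell chemokine) at 5.46, Slfn4 at 4.37, Fcgr1 (a high-affinity Fc receptor) at 4.34 and Fpr1 (a formyl peptide receptor of myeloid cells) at 4.18. Of the 175 genes with at least a 2-fold lead, 15 were members and 23 were on the pathway lists. The lists do not hold every interferon-induced gene, so genes outside them are not taken as unrelated to interferon.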
